A study of Homo sapiens with 6 samples.

Results

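VCAN, HAPLN1 and EDIL3 are 3 neighbouring genes of chromosome 5q14 that encode proteins of the extracellular matrix, out of 19775 genes with a probe set of their own on the array. Members were chosen by name, as matrix genes of the region whose probe sets were already known to be higher in resistant cells, and all 12 probe sets annotated to 1 of them alone were read, 5 for VCAN, 4 for HAPLN1 and 3 for EDIL3. The comparison of resistant with sensitive cells therefore chose these genes, and their values in it are described here without a test. RNA came from HT29 cells, a human colon adenocarcinoma line, in a form sensitive to methotrexate (MTX, an antifolate) and in a form made resistant to 10 μM MTX by stepwise exposure, with 3 samples of each on HG U133 plus 2.0 arrays. Sensitive cells were kept in Ham's medium with whole serum, and resistant cells in a medium lacking glycine, hypoxanthine and thymidine with dialyzed serum, so medium and resistance cannot be told apart.

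VCAN encodes versican, a large chondroitin sulfate proteoglycan of the lectican family that binds hyaluronan through its N-terminal domain. HAPLN1 encodes link protein, which holds such proteoglycans on hyaluronan chains and is best known from cartilage. EDIL3 encodes a secreted protein with EGF-like and discoidin domains, which binds integrins αvβ3 and αvβ5 through an RGD sequence. Versican and link protein thus act in 1 hyaluronan network, whereas EDIL3 works at the cell surface.

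Along the chromosome the order of the listed genes is XRCC4, VCAN, HAPLN1, EDIL3 and COX7C. VCAN is transcribed on the plus strand, and HAPLN1 and EDIL3 on the minus strand. RefSeq lists 4 curated transcripts of VCAN, 1 of HAPLN1 and 2 of EDIL3. Promoter windows of the RefSeq annotation are shown because all 3 neighbours were higher in resistant cells. Each runs from 250 bases before to 50 bases after the start site, 5′ to 3′ on the gene's own strand in GRCh38.p14, at chr5:83471494-83471793 (plus) for VCAN, chr5:83720806-83721105 (minus) for HAPLN1 and chr5:84384831-84385130 (minus) for EDIL3. Capitals mark GC boxes, GGGCGG on either strand.
VCAN: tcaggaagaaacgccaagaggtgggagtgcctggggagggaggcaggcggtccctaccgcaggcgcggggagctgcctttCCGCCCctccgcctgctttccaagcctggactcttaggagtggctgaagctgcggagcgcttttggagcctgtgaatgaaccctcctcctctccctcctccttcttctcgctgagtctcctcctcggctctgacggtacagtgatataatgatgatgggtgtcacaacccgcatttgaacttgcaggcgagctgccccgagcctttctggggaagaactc
HAPLN1: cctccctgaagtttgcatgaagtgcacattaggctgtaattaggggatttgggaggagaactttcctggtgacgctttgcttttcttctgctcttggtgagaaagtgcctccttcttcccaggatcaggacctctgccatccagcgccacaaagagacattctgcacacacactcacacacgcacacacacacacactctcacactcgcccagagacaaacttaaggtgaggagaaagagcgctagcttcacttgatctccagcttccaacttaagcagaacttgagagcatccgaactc
EDIL3: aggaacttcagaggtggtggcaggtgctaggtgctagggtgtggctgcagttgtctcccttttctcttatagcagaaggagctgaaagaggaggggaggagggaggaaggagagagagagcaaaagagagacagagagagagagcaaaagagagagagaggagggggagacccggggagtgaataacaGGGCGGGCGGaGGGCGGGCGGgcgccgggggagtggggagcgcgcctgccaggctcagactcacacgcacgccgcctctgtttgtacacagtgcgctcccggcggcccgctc

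The window of EDIL3 held 4 GC boxes, in overlapping pairs at bases 189 and 193 and at bases 200 and 204 of the window, that of VCAN held 1 on the opposite strand at base 81, and that of HAPLN1 held none. Of 27305 promoter windows of this length, 44.6% had at least 1. G and C made up 62.7% of the EDIL3 window, 60.3% of the VCAN window and 50% of the HAPLN1 window, against a median of 58.3% over all windows. HAPLN1 also had the fewest CpG pairs of the 3, 6 against 15 in VCAN and 16 in EDIL3, with an observed over expected ratio of 0.328 (0.549 in VCAN and 0.620 in EDIL3, median of all windows 0.580). None of the 3 windows held TATAAA (in 12.0% of all windows), CCAAT (35.7%), the AP-1 type motif TGANTCA (7.76%) or the TCF type motif CTTTGAT (2.64%) on either strand. These are descriptions of letters in a window and not of binding.

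All values below are scaled signals, which are deposited MAS5 intensities divided by the median of their array, so that 1 is the array median. Array medians lay between 13.3 and 16.9, and the highest scaled signal of any probe set lay between 763 and 893. Every one of the 12 probe sets averaged 1 or more over the 6 arrays and so passed the filter on low values, but 19 of their 36 values in sensitive cells were under 1. No detection calls were used here, so such a value sets no firm level. At 215646_s_at, 211571_s_at, 204619_s_at and 1558643_s_at the mean over the sensitive arrays alone was under 1, so these passed only through the resistant arrays. Signals of different probe sets are not on a common scale, and only folds are compared between them. In probe set names, a plain _at ending marks probes designed for 1 transcript, _s_at probes that fit several related transcripts and _x_at probes of which some may also bind unrelated RNA.

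On all 12 probe sets, every resistant array was above every sensitive array, which held for 14.5% of the 26833 probe sets that passed the filter. All 12 were at least 3-fold higher by mean log2 values, against a background of 1.65%. Both counts follow from the way the genes were chosen. The log2 fold changes ran from 3.22 at the dimmest probe set of EDIL3 to 7.64 at a probe set of HAPLN1.

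HAPLN1 had the narrowest range of folds of the 3 genes. At 205523_at, its brightest probe set, scaled signals were 15.1, 3.01 and 0.942 on the sensitive arrays (replicates 1, 2 and 3, the order used throughout) and 514, 531 and 502 on the resistant arrays. The resistant arrays differed by little, with a coefficient of variation of 2.85%, whereas the sensitive arrays spread over more than an order of magnitude. The log2 fold change was 7.20, and the ratio of the means was 81.2. At 230204_at the sensitive arrays gave 10.7, 2.97 and 2.00 and the resistant arrays 480, 476 and 434. Replicate 1 was again the highest sensitive array, and the log2 fold change was 6.86. At 205524_s_at the values were 9.45, 2.86 and 1.38 against 431, 448 and 427, a log2 fold change of 7.03. At 230895_at they were 2.82, 0.587 and 0.714 against 235, 187 and 212, which gave 7.64, the largest log2 fold change of the 12 probe sets. The 4 probe sets of HAPLN1 thus lay within 0.78 of each other on the log2 scale, or within 0.36 once every signal under the array median was set to it. A single curated transcript is listed for this gene, so its probe sets read the same RNA as far as that annotation goes. Even the lowest resistant array exceeded the highest sensitive array by 33.2-fold to 66.1-fold, depending on the probe set.

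EDIL3 had a log2 fold change within the range of HAPLN1 at 1 probe set and below it at the others. 225275_at gave 6.94, 2.03 and 0.5 on the sensitive arrays against 334, 309 and 262. Its resistant arrays spread more than those of HAPLN1 (coefficient of variation 12.1%), and the log2 fold change was 7.29. 207379_at gave 1.90, 1.47 and 0.539 against 47.5, 49.0 and 42.9, a log2 fold change of 5.34. At 1558643_s_at all 3 sensitive arrays were under the array median, at 0.641, 0.213 and 0.779, against 3.46, 5.51 and 4.52 in resistant cells. This probe set was dim in both groups and had a log2 fold change of 3.22, or 2.14 with signals under 1 set to 1. The probe sets of EDIL3 spanned 4.07 on the log2 scale, against 0.78 for HAPLN1. With signals under 1 set to 1 the span was 4.81. RefSeq lists 2 curated transcripts of EDIL3, and the deposited values hold no probe positions that would assign a probe set to either of them.

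VCAN had a lower log2 fold change than HAPLN1 at every probe set and never exceeded a scaled signal of 1.89 in sensitive cells. At 221731_x_at, the brightest, sensitive arrays gave 0.824, 1.89 and 1.18 and resistant arrays 20.3, 18.8 and 25.5. The log2 fold change was 4.12 and the ratio of means 16.6. The ending of this probe set allows binding of other RNA, and the part of such binding in its values was not tested. 204620_s_at gave 1.64, 1.26 and 0.942 against 19.6, 15.98 and 23.3, with a close log2 fold change of 3.96. The other 3 probe sets were under the array median on all 3 sensitive arrays. 211571_s_at gave 0.662, 0.0533 and 0.117 against 4.50, 6.02 and 6.76, 215646_s_at gave 0.0282, 0.0333 and 0.558 against 5.89, 5.24 and 9.03, and 204619_s_at gave 0.331, 0.680 and 0.468 against 5.17, 3.93 and 5.25. Their log2 fold changes of 5.15, 6.34 and 3.33 depend on signals with no firm level, and with signals under 1 set to 1 they were 2.51, 2.71 and 2.25. The 2 brighter probe sets kept 4.03 and 3.93 under that setting. The folds of the VCAN probe sets therefore comprised a brighter pair, at 4.12 and 3.96, and 3 dim probe sets whose size is not settled, and nothing in the values assigns them to the 4 curated transcripts. Versican is known for isoforms that differ in their chondroitin sulfate attachment regions, but no probe set could be given to an isoform here.

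In resistant cells the 5 probe sets of VCAN shared their highest array. By scaled signals, resistant replicate 3 was the highest array at all 5 VCAN probe sets and at no probe set of HAPLN1 or EDIL3. Before that scaling it was also the highest at 205524_s_at and 230895_at of HAPLN1, with deposited signals of 7214.5 and 3579.9. How often it was the highest over all tested probe sets is not given here. These 5 probe sets come from the same 3 samples and are not independent readings. Coefficients of variation over the resistant arrays ran from 15.6% to 30.2% for VCAN, from 2.51% to 11.6% for HAPLN1 and from 6.83% to 22.8% for EDIL3.

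**Figure D1:**
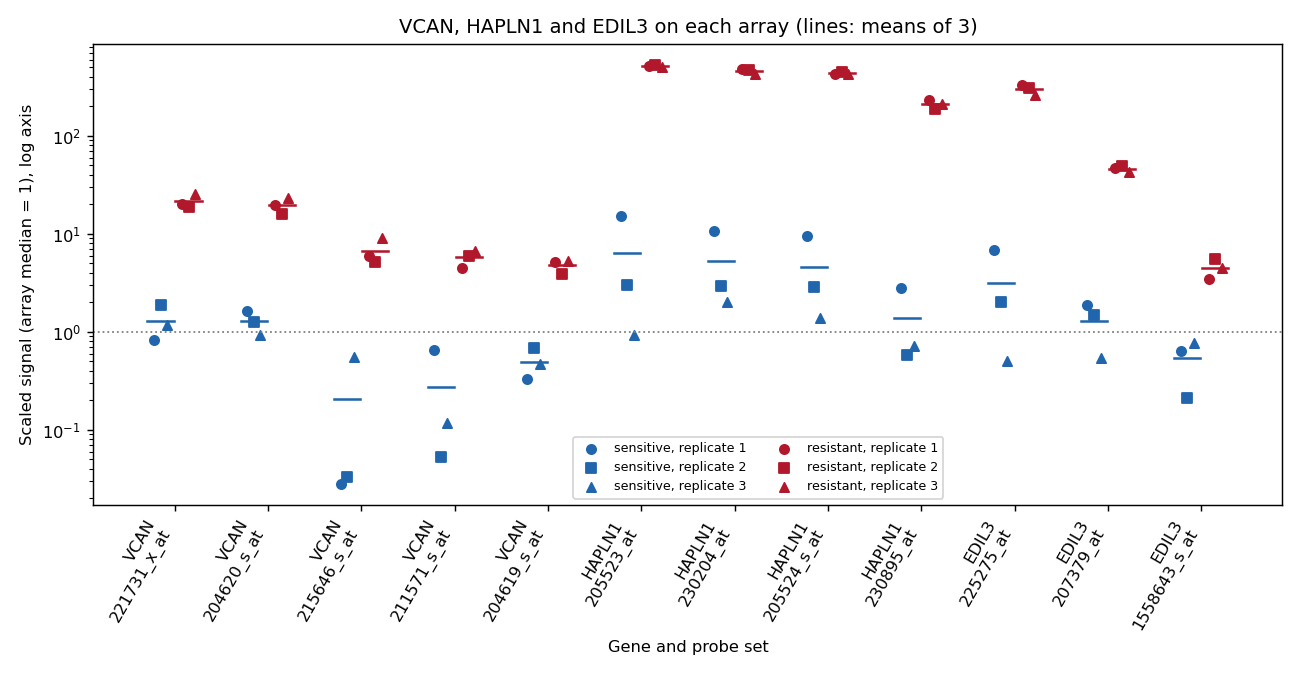
Scaled signal (log axis, array median at the dotted line) of the 12 probe sets of VCAN, HAPLN1 and EDIL3 on each of 3 sensitive arrays (blue) and 3 resistant arrays (red), with horizontal lines at the means and marker shapes for replicates. All resistant points lie above all sensitive points, resistant means of HAPLN1 lie between 211 and 516, and the blue circles of sensitive replicate 1 stand highest at HAPLN1.

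Within the sensitive cells, replicate 1 gave the highest signal of HAPLN1 throughout, and of EDIL3 at most probe sets. Replicate 1 was the highest sensitive array at 4 of 4 probe sets of HAPLN1, at 2 of 3 of EDIL3 and at 2 of 5 of VCAN. The full order of replicate 1 over 2 over 3 was seen at 3, 2 and 1 of them, against 25.4% of all tested probe sets. The count of 6 probe sets with that order was the same after quantile normalization, without scaling, and when arrays were divided by the median of tested probe sets only. Replicate 1 was at least 3 times replicate 3 at all 4 probe sets of HAPLN1 (3.95-fold to 16.04-fold) and at 2 of 3 of EDIL3 (13.9-fold and 3.53-fold). That was so at 0.921% of all tested probe sets, at 0.881% of the 15316 whose mean in sensitive cells lay between 1 and 10, and at 1 of 30 tested probe sets of the other listed genes of the interval. VCAN had 1 of 5 such probe sets, a dim one. Several of these ratios rest on signals with no firm level. Replicate 3 was under the array median at 205523_at (0.942) and 230895_at (0.714) of HAPLN1 and at 225275_at (0.5) and 207379_at (0.539) of EDIL3. Replicate 1 was at 2.82 at 230895_at and at 1.90 at 207379_at. With signals under 1 set to 1, replicate 1 was therefore less than 3 times replicate 3 at both of these. Probe sets of 1 gene read the same samples, so these counts are not counts of independent readings. The median ratio of replicate 1 to replicate 3 was 6.12 for HAPLN1 and 1.05 over all tested probe sets.

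As a share of the resistant mean of the same probe set, HAPLN1 in sensitive replicate 1 stood at 1.34% to 2.93%, in replicate 2 at 0.278% to 0.657% and in replicate 3 at 0.183% to 0.432%. EDIL3 at 225275_at stood at 2.30%, 0.674% and 0.166% of its resistant mean. VCAN at its brightest probe set stood at 3.83%, 8.79% and 5.49%, with replicate 1 the lowest. The next brightest, 204620_s_at, ran the other way at 8.35%, 6.41% and 4.79%, in the same order as EDIL3 at 225275_at. IGFBP7, whose secreted product binds insulin-like growth factors, lies outside the interval and had the largest ratio of means among probe sets of other genes with 10 or more on every resistant array. It stood at 1.15%, 0.713% and 0.609% at 201163_s_at and at 1.27%, 0.650% and 1.13% at 201162_at. All of these IGFBP7 signals were under the array median, at 0.127 to 0.697, and set no firm level. The source of the differences among the sensitive arrays was not tested. The folds moved with these arrays. Leaving out sensitive replicate 1 gave log2 fold changes of 8.26 for HAPLN1 and 8.22 for EDIL3 at their brightest probe sets, leaving out replicate 3 gave 6.26 and 6.32, and for VCAN the values without 1 sensitive array lay between 3.84 and 4.44.

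**Figure D2:**
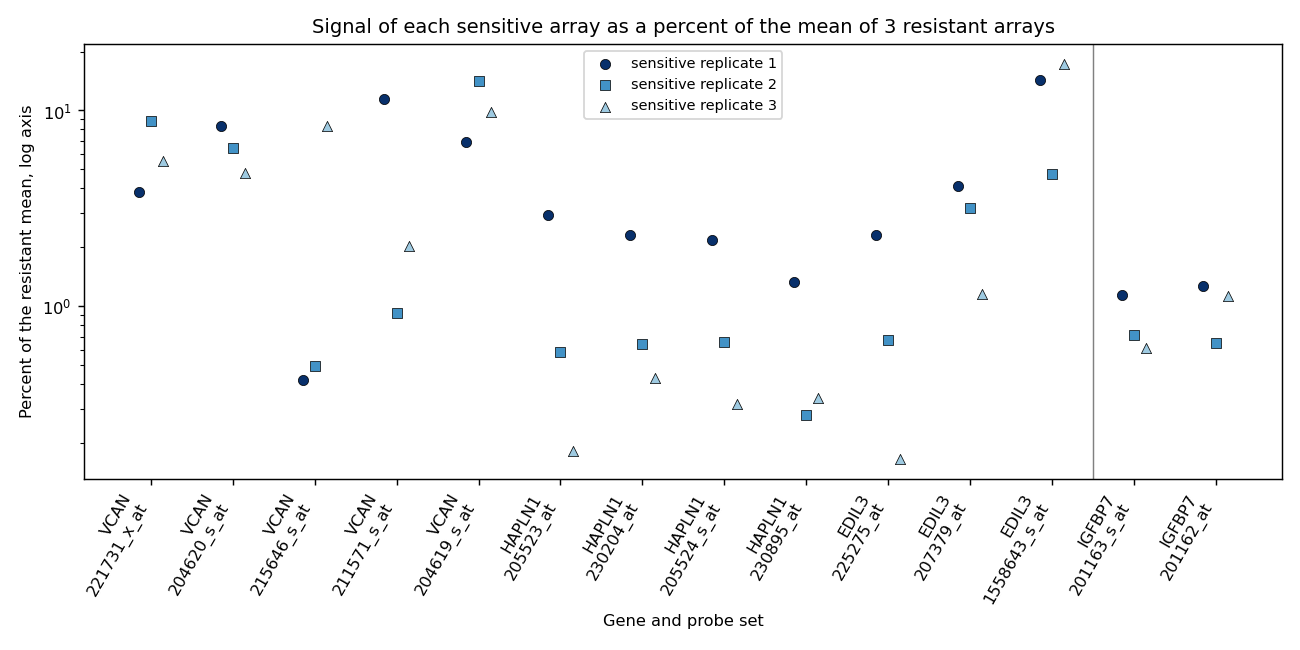
Scaled signal of each sensitive array as a percent of the mean of the 3 resistant arrays (log axis) at the 12 probe sets and, right of the line, at both probe sets of IGFBP7. At HAPLN1 the circles of replicate 1 lie at 1.34% to 2.93%, above replicates 2 and 3, whereas at VCAN no replicate is highest throughout.

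Among the genes of the interval, HAPLN1 and EDIL3 had the highest log2 fold changes at their brightest probe sets. The 12 other listed genes with a tested probe set had log2 fold changes from -0.06 (SERINC5) to 5.98 (ACOT12) at their brightest probe sets, with a median of 2.32, and 10 of them passed an adjusted p of 0.05 from limma in the higher direction, where 12.4% of all 11835 tested genes did. This list was drawn up with that result known. No gene of it exceeded HAPLN1 or EDIL3, and ACOT12 and ATP6AP1L exceeded VCAN, but both of these were under the array median on every sensitive array. With signals under 1 set to 1, VCAN was at 4.03, above all 12, the highest of which was ATP6AP1L at 3.77. Of 30 tested probe sets of those genes none exceeded the lowest probe set of HAPLN1. COX7C, a subunit of cytochrome c oxidase and the listed gene next beyond EDIL3, had a log2 fold change of 0.05 (adjusted p = 0.74 from limma). On the other side XRCC4, a DNA end joining factor, was at 2.44 (adjusted p = 1.9e-16 from limma). Signals were compared within probe sets, and no copy number was measured on these arrays.

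**Figure D3:**
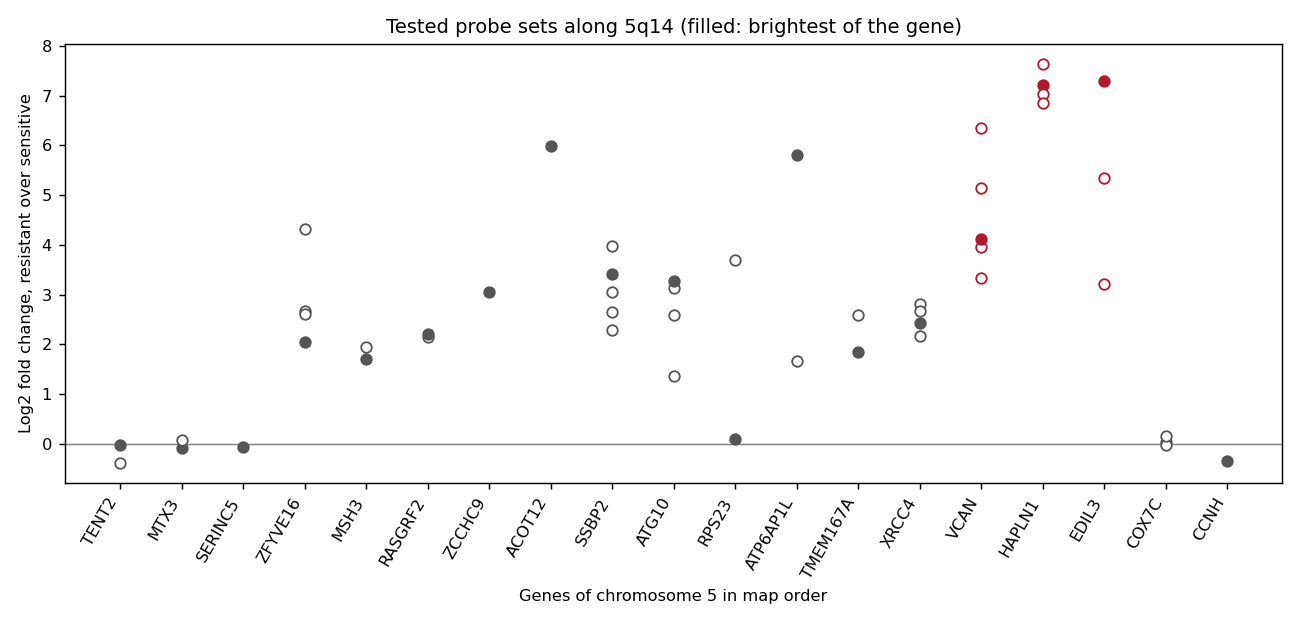
Resistant over sensitive cells as a log2 fold change for every tested probe set of the listed genes of 5q14 and its neighbours in map order, with VCAN, HAPLN1 and EDIL3 in red and the brightest probe set of each gene filled. HAPLN1 lies between 6.86 and 7.64 while EDIL3 spreads from 3.22 to 7.29, and COX7C beyond EDIL3 lies near 0.

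The genes whose pattern over the 6 arrays was most like that of each member were searched among 11819 genes outside the interval, by the root mean square difference of log2 values after centring on the resistant mean. COL1A1, which encodes a chain of type I collagen, was nearest to VCAN, with a difference of 0.30 and Pearson r of 0.990 over the 6 arrays. Its brightest probe set gave 0.465, 0.867 and 0.890 in sensitive and 14.6, 9.46 and 11.4 in resistant cells, while its other 3 tested probe sets had log2 fold changes of 0.07 to 1.54, so the probe sets of COL1A1 differed. ITGA9, an integrin α subunit, SOX8, EML2-AS1 and MCOLN3 came next, with differences of 0.47 to 0.58. The nearest gene to both HAPLN1 and EDIL3 was IGFBP7, but at larger differences of 0.91 and 0.87 (r of 0.972 and 0.976), and TUBB2B, CALD1, PEG10 and PPP1R14C followed at 1.59 to 2.18. By this measure no gene outside the interval came as close to HAPLN1 or EDIL3 as COL1A1 did to VCAN. The matched genes other than TUBB2B and CALD1 were under the array median on every sensitive array. All of the matched genes passed the filter only through the resistant arrays. The differences and their ranking therefore rest in large part on signals with no firm level. All these correlations follow from the difference between the groups and are given as descriptions.

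The rest of the matrix network is described by its counts. Of 101 listed genes that make, bind, modify or receive hyaluronan, proteoglycans and EDIL3, 97 had a probe set and 52 passed the filter on low values. In resistant cells 8 of these were higher, 14 lower and 30 did not pass an adjusted p of 0.05 from limma, against 12.4% higher and 22.5% lower of all tested genes. Their median log2 fold change was -0.11, beside -0.10 for all genes, which other scalings of the arrays moved to between -0.05 and 0.02. After quantile normalization 13 were higher and 13 were lower. With equal variances assumed, a test on each gene alone called 2 higher and 6 lower.

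Of 8 tested genes of hyaluronan synthesis, turnover and receptors, 2 were higher and 3 were lower, and the median was -0.18. Among all tested genes 12.4% were higher and 22.5% lower. HAS2, a hyaluronan synthase, gave 1.42, 1.56 and 1.25 in sensitive and 0.436, 0.794 and 0.604 in resistant cells, or -1.24 as a log2 fold change, which did not pass (adjusted p = 0.099 from limma). Every resistant signal of HAS2 was under 1, and with signals under 1 set to 1 it was at -0.49 (adjusted p = 0.19 from limma). Of 18 alternatives 2 called it lower. These were limma without a mean-variance trend (adjusted p = 0.0095) and the mean of all its probe sets, those under the filter included. HAS3, another synthase, was at 0.24 (adjusted p = 0.49) at its brightest and 1.68 at its other tested probe set. CD44, the main cell surface receptor of hyaluronan, had signals of 131, 123 and 119 against 166, 143 and 173 and rose by 0.36 (adjusted p = 0.011 from limma). Log2 fold changes of 10 more probe sets of CD44 lay between -0.33 and 1.02, and 6 of 19 alternatives ended the call. CEMIP, which takes part in hyaluronan breakdown, rose by 0.54, a call that 7 of 19 alternatives ended. HYAL2, a hyaluronidase, was lower at -0.60, CEMIP2 at -0.77 and HMMR, which binds hyaluronan and the mitotic spindle, at -0.53. Of 19 alternatives, 4 ended the call of HYAL2, among them leaving out sensitive replicate 1, 2 that of CEMIP2 and 3 that of HMMR.

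Relatives of the members were mostly dim. HAPLN2 and HAPLN4 did not reach the array median on any array, and HAPLN3 lay between 0.289 and 1.80 with no separation of the groups. NCAN was under the array median on all arrays. ACAN, the proteoglycan that link protein holds in cartilage, gave 1.22, 0.880 and 0.903 against 1.23, 1.73 and 1.07, a log2 fold change of 0.41 (adjusted p = 0.55 from limma). BCAN was at -0.75 (adjusted p = 0.0041 from limma) at its brightest probe set and at 0.74 at its other tested one, so that no direction is given for it. MFGE8, which shares the domain plan of EDIL3, was at 0.39 (adjusted p = 0.28) with overlapping groups.

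Among ligands and proteases of versican, 3 of 14 genes with a probe set passed the filter. TNC, the matrix protein tenascin C, gave 1.25, 1.79 and 1.80 against 4.47, 1.95 and 5.12 and rose by 1.16 (adjusted p = 0.0041 from limma), with 4 of 18 alternatives ending the call. MMP7, a matrix metalloproteinase of epithelial cells, fell from 255, 188 and 216 to 55.2, 60.7 and 107, a log2 fold change of -1.62 (adjusted p = 3.3e-11 from limma). Of 19 alternatives 2 ended that call, the tests on each gene alone with equal and with unequal variances. ADAMTS4, a protease that cleaves versican, was at 0.10 (adjusted p = 0.87).

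Chondroitin sulfate is the sugar chain that versican carries, and of 17 tested genes of its synthesis 1 was higher and 5 were lower. Over all tested genes 12.4% were higher and 22.5% lower, and a change of the list as a whole was not tested. DSE, which converts chondroitin to dermatan sulfate, fell from 5.42, 4.74 and 4.99 to 1.12, 1.02 and 1.14 (-2.20 on the log2 scale, adjusted p = 6.3e-08 from limma). Averaged over every probe set of the gene, those under the filter included, it was at -0.77 and no longer called. CHST3, a sulfotransferase, was at -2.89, or at -0.77 with signals under 1 set to 1, and 4 of 18 alternatives ended its call, among them leaving out sensitive replicate 1 or 2. B3GALT6, an enzyme of the linker that joins the chain to the protein, fell by 0.90, and CHSY1 and CHPF2, which lengthen the chain, by 0.64 and 0.58. XYLT2, which starts the chain, rose by 0.48 at its brightest probe set and by 0.33 at its other tested one. When every probe set was averaged, those under the filter included, it was at -0.28, so that no direction is given for it. The other 11 did not pass.

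Of 14 tested genes of other proteoglycans, 2 were higher and 3 were lower, beside 12.4% higher and 22.5% lower of all tested genes. GPC1 rose by 1.98 (adjusted p = 4.8e-10 from limma) and GPC4 fell by 3.76 (adjusted p = 9.0e-14 from limma), which are both glypicans, proteoglycans anchored to the cell membrane. CSPG4 rose by 2.29 from signals under 1, or by 0.82 with those set to 1, a call that 4 of 18 alternatives ended, among them leaving out resistant replicate 1 or 3. BGN, a small proteoglycan of the matrix, fell from 13.1, 14.7 and 12.2 to 0.0677, 0.15 and 0.0947, with log2 fold changes of -7.08 at its brightest probe set and -3.26 and -2.24 at the other tested ones. The resistant signals of BGN set no firm level, and with signals under 1 set to 1 its first value was -3.74. HSPG2, the basement membrane proteoglycan perlecan, fell by 0.58, and 7 of 19 alternatives ended its call.

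Of 8 tested genes of the EDIL3 paralogue and integrin list 2 were higher and 1 was lower. For all tested genes the shares were 12.4% and 22.5%. ITGAV, the αv chain, gave 57.8, 66.3 and 62.2 against 82.3, 72.9 and 79.1, and rose by 0.33 (adjusted p = 0.048 from limma), a call that 9 of 19 alternatives ended. ITGB5, the β5 chain, gave 78.9, 67.1 and 70.7 against 73.4, 66.5 and 66.3, which is -0.07 as a log2 fold change (adjusted p = 0.72 from limma), while 3 more probe sets lay between -0.65 and 0.34. ITGB3, the β3 chain, was near the array median in both groups at -0.01 (adjusted p = 0.99). ITGB1, the β1 chain, rose by 0.32 and PTK2, the focal adhesion kinase downstream of integrins, fell by 0.45, of which 6 and 3 of 19 alternatives ended the calls.

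**Figure D4:**
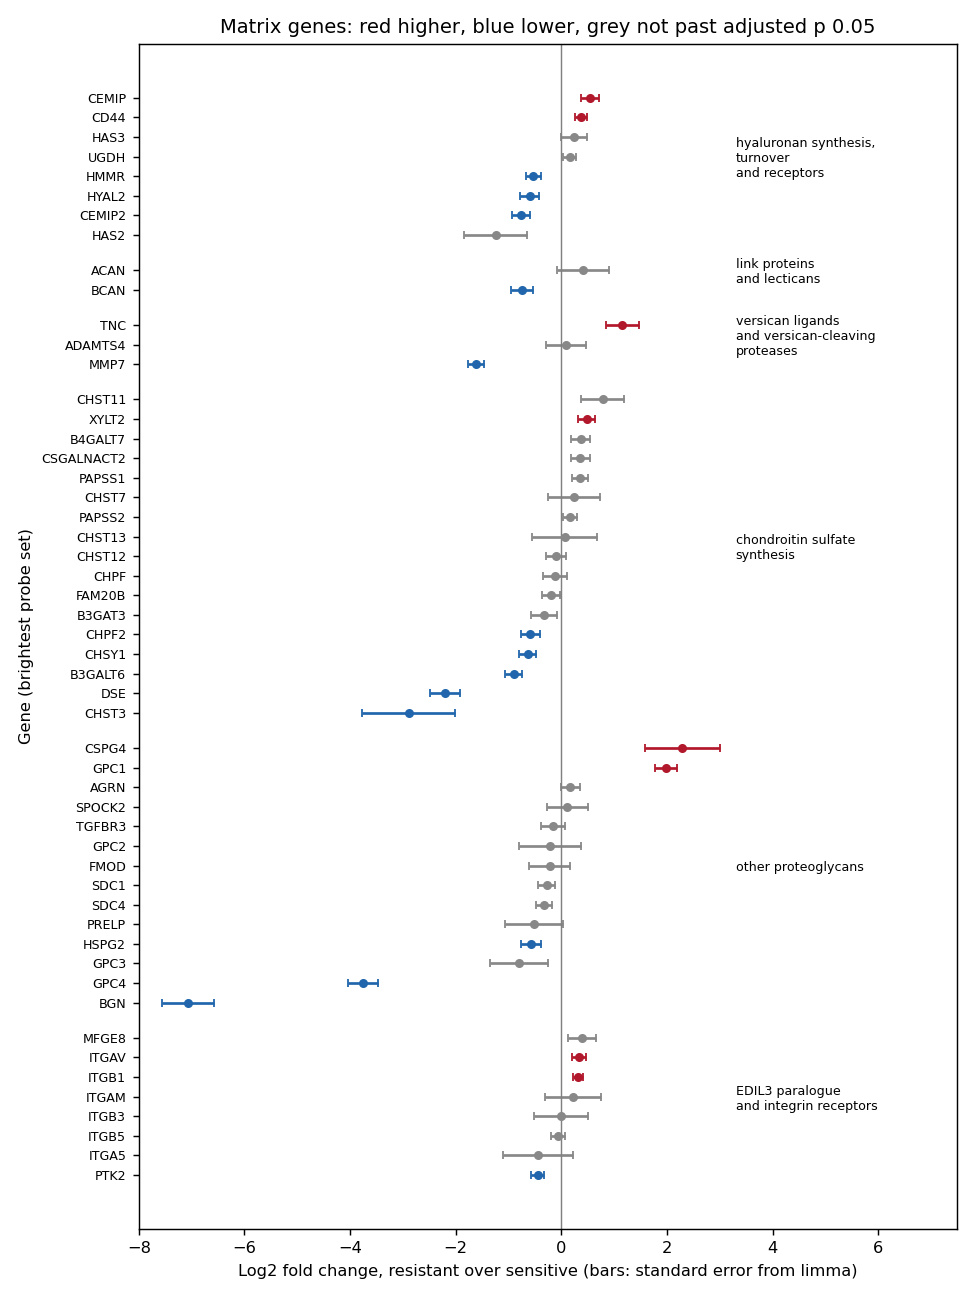
Difference between resistant and sensitive cells (log2 fold change) for the 52 tested genes of the matrix lists at their brightest probe sets, with limma's standard errors as bars, red for higher, blue for lower and grey for genes past no threshold. Values run from -7.08 (BGN, -3.74 with signals under 1 set to 1) to 2.29 (CSPG4, 0.82 likewise), with 8 genes in red and 14 in blue. None is as high as the 4.12 to 7.29 of VCAN, HAPLN1 and EDIL3, which were chosen as higher in this comparison.

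Of 9 colon epithelial markers 7 were tested, with 1 higher (CDH17, at 0.48 to 1.82 in sensitive and 1.92 to 2.91 in resistant samples) and 4 lower (KRT8, KRT20, VIL1 and LGALS4). Of all tested genes 12.4% were higher and 22.5% lower, which are also the shares beside the lists below. The summed scaled signal of the epithelial list ran from 1856 to 2040 in sensitive and from 1460 to 1607 in resistant samples. EPCAM was at 322 ± 21.2 and 319 ± 2.54 (SD, n = 3 each), while CDX1 and CDX2 stayed under the array median on all arrays. Of 10 fibroblast markers 2 were tested, COL1A1 (higher) and FAP (adjusted p = 0.058 from limma). The summed signal of the list lay between 6.72 and 7.56 in sensitive and between 16.2 and 19.2 in resistant samples. Most of the resistant sum was COL1A1 at its brightest probe set, at 9.46 to 14.6. In sensitive samples that probe set was under the array median, at 0.465 to 0.890. The other 3 tested probe sets of COL1A1 had log2 fold changes of 0.07 to 1.54. DCN, COL1A2 and COL3A1 reached at most 1.24 on any array, and LUM was at 1.51 to 1.81 in sensitive and 0.0250 to 0.278 in resistant cells. Of 6 endothelial markers 2 were tested, with 1 lower (ENG) and none higher. Of 6 chondrocyte markers 2 were tested, and none passed in either direction. Summed signals were 5.64 to 8.31 against 3.74 to 4.49 for the endothelial list, and 44.3 to 51.7 against 34.03 to 45.1 for the chondrocyte list. Most of the chondrocyte sums was SOX9, at 41.8 to 49.1 in sensitive and 30.4 to 42.3 in resistant samples. The other chondrocyte markers reached at most 1.73 on any array (ACAN). The part of other cell types in the values of VCAN, HAPLN1 and EDIL3 was not tested, and in such bulk RNA a change in the number of cells of a type and a change in RNA per cell cannot be told apart.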

How the data were processed

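RNA of 3 sensitive and 3 resistant HT29 samples was hybridized to HG U133 plus 2.0 arrays, and groups follow the submitters' labels. Deposited values are MAS5 signals, which the authors give as 1 linear intensity per probe set (version not given in the sources used here), before any step in GeneSpring GX 7.3.1. No source says that replicates were separate cultures. P-values therefore rest only on the spread of these samples, which limma moderates across genes and which may be technical.

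Of 54675 probe sets, 62 controls were left out, and 41091 named 1 gene, 1801 several and 11721 none, by platform annotation with symbols updated through Entrez identifiers in RefSeq (GRCh38.p14, 41037 matched). Signals were divided by the array median, set to at least 0.01 and log2 transformed. Probe sets averaging 1 or more were fitted with limma 3.58.1 (R 4.3.3, lmFit and eBayes with trend) and adjusted by Benjamini-Hochberg, for genes at the brightest probe set. The procedure was tested on simulated data. Named were all probe sets of the members, up to 4 called genes with the largest change per list, some partners fixed by name and the 5 genes most like each member. CHPF2, XYLT2, HSPG2, NCAN, HAPLN2, HAPLN4, ADAMTS4, SERINC5, ACOT12, ATP6AP1L and the cell type markers were named after their values were seen. Members and lists were chosen with earlier results of these data known. 1 gene of the interval is not reported here.

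Alternatives covered scaling, low signals, the filter, the test, a replicate block, each array left out, the probe sets of a gene and the mean used for folds. The order of the sensitive arrays under other scalings was added after seeing the data. No scan dates or batches were used. Drawings were made with matplotlib 3.10.9.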

Additional observations from a re-analysis of the deposited data

How the results depend on the processing

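The direction of VCAN, HAPLN1 and EDIL3 held at all 12 probe sets under every alternative tried, and 12 were at least 3-fold higher in each, which the choice of these genes fixes and which is no sign of stability. At the brightest probe sets, values lay between 3.31 and 4.58 for VCAN, 6.26 and 8.26 for HAPLN1, and 5.28 and 8.22 for EDIL3. Moves beyond 1 SD there were VCAN at 3.31 with log2 of the signal plus 1 and EDIL3 at 5.28 when every probe set was averaged. Matrix network genes higher in resistant cells numbered 8, against 13 after quantile normalization and with scaling by the median of tested probe sets, 3 with limma without a trend, 2 and 0 with two-group tests of equal and unequal variances (7 higher and 13 lower at an unadjusted p of 0.05 by the latter), and 4 with the mean of all probe sets. Those lower numbered 14, against 6 and 1 with the same two-group tests. Leaving out 1 array gave 5 to 8 higher and 12 to 16 lower, with 5 higher without sensitive replicate 2, sensitive replicate 3 or resistant replicate 3. With the replicate block 9 were higher and 15 were lower. The folds of the members did not move, which the balanced design fixes in advance. Deviations of same-numbered samples correlated at 0.14, 0.0072 and 0.079, against -0.1144 to 0.0330 for differently numbered ones. Whether same-numbered samples are paired is not settled by these values. With the mean of all probe sets, those under the filter included, BCAN turned to 0.50 and XYLT2 to -0.28. Neither was past the threshold (adjusted p = 0.34 and 0.60 from limma). The cause of these moves was not tested. Signals under the array median, and 3 arrays a group, limit the precision of every fold given here.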
